A study of Mus musculus with 7 samples.

Results

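Genes of the major histocompatibility complex (MHC) and of antigen presentation were measured in vascular fragments of the mouse brain after PDGF-CC or PBS was injected into the cerebral ventricles. The members were the genes whose symbol starts with H2-, with B2m, Tap1, Tap2, Tapbp, Cd74, Ciita, Nlrc5, Psmb8, Psmb9 and Psmb10, and each was read from its brightest probe set with a single symbol in the array annotation. This gave 43 genes of 22180 with such a probe set, 30 on the class I side, 12 on the class II side and 1, H2-Ke6, outside both. H2-Ke6 lies in the region but encodes a steroid dehydrogenase, as background. Cd74 and H2-D1 have only probe sets that also carry another symbol. They are therefore not among the 43 members, and their values are not reported here.

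The PDGF-CC group held 4 arrays and the PBS group 3, all from female mice of 12 weeks. The study's design text gives the strain as C57BL/6N and the sample labels as C57BL/6, and no transgene or other treatment is named for either group. PDGF-CC is a growth factor that binds PDGFR-alpha, and PBS is a salt buffer that served as the control injection. Tissue was collected 4 hours later. Whether each array stands for a separate mouse or a pool is not given in the sources used here, so the p-values reflect only how far these arrays lie apart, and that spread may be technical.

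MHC class I molecules sit on nearly all nucleated cells and show peptides from inside the cell to CD8 T cells. Their heavy chain pairs with beta-2 microglobulin, and the peptides are cut by the immunoproteasome and carried into the endoplasmic reticulum by the TAP transporter. MHC class II molecules are made mainly by dendritic cells, B cells and macrophages, show peptides from outside the cell to CD4 T cells, and are loaded with the help of the DM and DO proteins. In the healthy brain class II is found mainly on macrophages and dendritic cells at the vessels and borders. NLRC5 drives the class I genes and CIITA the class II genes, through shared promoter elements called the X and Y boxes, and interferons raise both classes.

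The promoters of 6 members, and the stretch between Tap1 and Psmb9, are printed to show matches to elements of class I and class II promoters. The sequences come from RefSeq gene starts on GRCm38.p6, and 31 of the 43 members had an entry. Each shows the 250 bases before the start, 5′ to 3′ on the gene's strand. H2-Aa is at chr17:34287824-34288073 on the minus strand, H2-Eb1 at chr17:34305617-34305866 on the plus strand and H2-Eb2 at chr17:34325425-34325674 on the plus strand. H2-K1 is at chr17:34000348-34000597 on the minus strand, B2m at chr2:122147437-122147686 on the plus strand and H2-T23 at chr17:36032702-36032951 on the minus strand. Tap1 and Psmb9 are transcribed away from each other, and the 225 bases between their starts, at chr17:34187331-34187555, are printed on the strand of Tap1. Capitals mark matches on either strand to 5 motifs: GGGGA followed directly by TTCCC (the kappaB site of the class I enhancer A), GAAA, any 2 bases and GAAA (the core of the interferon-stimulated response element), AGCAACNG (the core of the X1 box), TGACG (the core of the X2 box) and CCAAT (the Y box). Matches may overlap.
H2-Aa: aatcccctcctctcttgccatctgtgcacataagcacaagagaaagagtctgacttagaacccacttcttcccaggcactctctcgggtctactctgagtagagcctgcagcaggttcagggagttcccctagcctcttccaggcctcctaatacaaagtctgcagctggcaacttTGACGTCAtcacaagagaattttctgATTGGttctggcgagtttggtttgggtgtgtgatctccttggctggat
H2-Eb1: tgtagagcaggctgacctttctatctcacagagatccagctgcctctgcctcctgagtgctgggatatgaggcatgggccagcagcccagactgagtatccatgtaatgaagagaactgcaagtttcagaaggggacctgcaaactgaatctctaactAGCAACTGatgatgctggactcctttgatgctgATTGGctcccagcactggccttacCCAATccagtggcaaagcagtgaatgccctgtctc
H2-Eb2: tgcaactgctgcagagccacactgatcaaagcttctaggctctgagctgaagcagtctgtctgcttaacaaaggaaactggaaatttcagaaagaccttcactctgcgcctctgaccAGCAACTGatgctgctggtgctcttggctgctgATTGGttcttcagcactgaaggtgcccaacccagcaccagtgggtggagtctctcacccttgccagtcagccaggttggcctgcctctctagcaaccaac
H2-K1: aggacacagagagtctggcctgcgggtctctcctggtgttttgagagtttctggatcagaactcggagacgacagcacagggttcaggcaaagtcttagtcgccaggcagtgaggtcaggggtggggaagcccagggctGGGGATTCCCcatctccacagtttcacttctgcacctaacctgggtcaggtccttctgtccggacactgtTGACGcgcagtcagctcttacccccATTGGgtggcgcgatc
B2m: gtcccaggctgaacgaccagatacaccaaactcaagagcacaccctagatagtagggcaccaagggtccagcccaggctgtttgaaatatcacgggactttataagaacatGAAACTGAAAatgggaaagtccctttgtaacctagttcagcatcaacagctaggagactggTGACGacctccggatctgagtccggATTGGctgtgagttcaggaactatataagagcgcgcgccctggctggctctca
H2-T23: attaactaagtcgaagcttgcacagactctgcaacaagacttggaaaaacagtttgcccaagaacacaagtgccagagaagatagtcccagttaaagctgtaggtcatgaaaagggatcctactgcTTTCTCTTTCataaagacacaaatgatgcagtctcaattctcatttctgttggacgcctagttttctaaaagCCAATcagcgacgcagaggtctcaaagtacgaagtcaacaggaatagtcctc
Tap1 and Psmb9: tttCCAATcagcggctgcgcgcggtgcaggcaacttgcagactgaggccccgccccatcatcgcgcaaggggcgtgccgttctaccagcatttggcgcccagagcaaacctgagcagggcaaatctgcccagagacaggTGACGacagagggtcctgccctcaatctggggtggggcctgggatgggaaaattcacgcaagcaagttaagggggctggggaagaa

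The Y box was found in 20 of 24 windows of class I side genes and in 8 of 9 windows of class II side genes, against 33.8% of 32851 windows of that length in the table. The X1 core was present in H2-Eb1 and H2-Eb2 only among the members' windows, starting 92 and 133 bases before the start, against 4.14% of all windows. The X2 core was present in 12 of 24 class I side windows and in 1 of 9 class II side windows, that of H2-Aa, against 17.8%. In H2-Aa it was matched on both strands within the 8 letters TGACGTCA, starting 74 bases before the start. The kappaB site was found in both H2-K1 windows, which overlap, and in no other member's window, against 0.0852% of all windows. It was searched for as a known class I promoter element, so a match in a class I gene is no independent result. The interferon element was found in B2m, starting 139 bases before the start, and in H2-T23, at 124 bases, against 2.98%. These windows are not all independent: H2-K1 and H2-M9 each had overlapping windows of the same promoter, and Tap1 and Psmb9 share their matches. These matches describe the letters of the windows and do not show binding. Only exact letters were searched, so a window without a match may still hold a variant of the element.

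Fragments were first checked against endothelial markers. All 10 endothelial markers were well above the filter, which was set at a log2 value of 4.145, the 30th percentile of probe sets with a gene symbol. Their means ran from 9.09 to 12.36, with Pecam1 at 11.20 and Cldn5 at 10.11. Microglial markers ran from 6.97 to 11.01 and choroid plexus markers from 5.31 to 12.75. The endothelial levels thus do not show that the fragments held endothelium alone. Arrays correlated at 0.987 to 0.994. Of the members, 29 lay above the filter by their mean over all 7 arrays and 14 below it. The 14 members below it, 11 on the class I side and 3 on the class II side, had no test. They were H2-Q1, the M region genes H2-M1, H2-M2, H2-M9, H2-M11 and H2-M10.1 to H2-M10.6, of which the M10 genes are known from the vomeronasal organ, and the class II side genes H2-Ea, H2-DMb1 and H2-Pb. H2-Ea is inactive in C57BL/6 mice, as background, and its mean was 4.00 in PDGF-CC and 4.03 in PBS arrays.

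No member passed the threshold after PDGF-CC. By limma with Benjamini-Hochberg adjustment, 0 of 29 members and 0 of 17734 tested probe sets (0%) had an adjusted p under 0.05. At an unadjusted p under 0.05 there were 2 members, H2-T10 higher and H2-Q4 lower, against 6.04% of all probe sets. The groups did not overlap for 2 members, H2-T10 higher and H2-T23 lower, against 4.30% of all probe sets, of which 1.80% were higher and 2.50% lower. These shares lie near the background. Of the 29 members 15 had a positive and 14 a negative difference, and over all tested probe sets 48.4% were positive. The median difference of the members was 0.002 on the log2 scale, and that of all 15582 tested genes was -0.003.

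**Figure D1:**
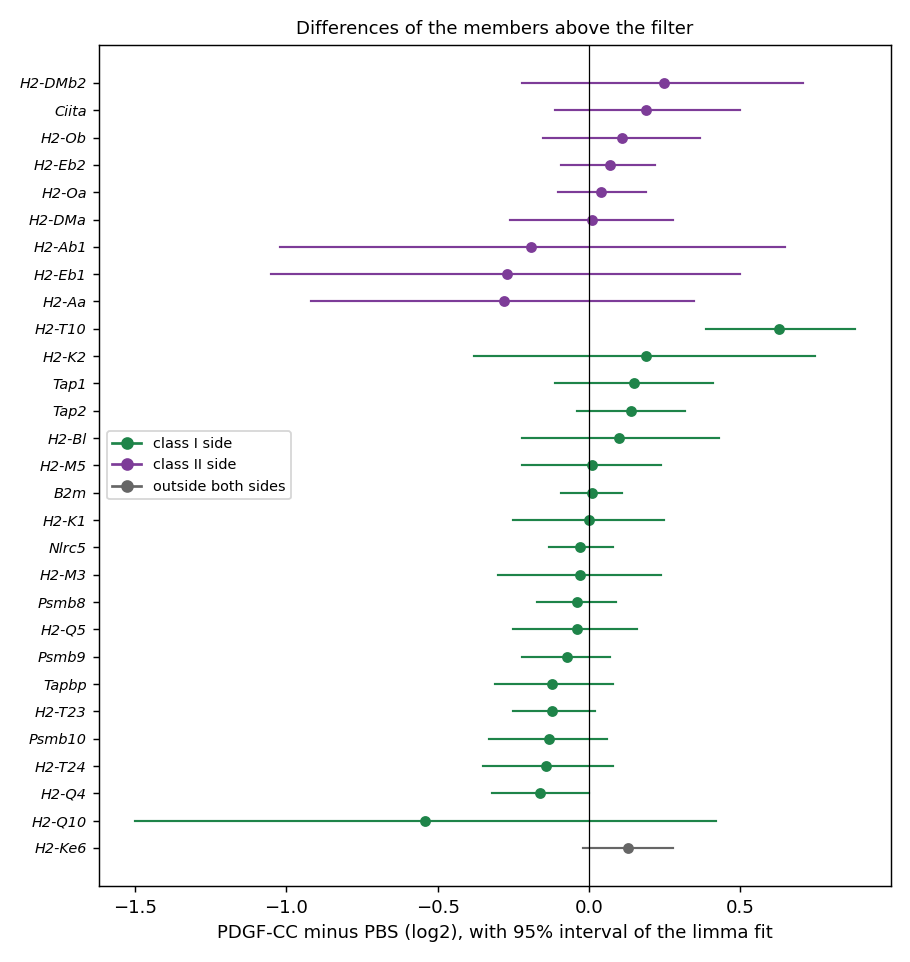
Difference between PDGF-CC and PBS arrays on the log2 scale for the 29 members above the filter, with the 95% interval of the limma fit (4 and 3 arrays). Intervals are wide for H2-Ab1, H2-Eb1, H2-Aa and H2-Q10, and H2-T10 lies farthest to the right at 0.63.

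The class I and the class II side did not separate by treatment. On the class I side the median difference over 19 genes above the filter was -0.03, with 8 positive and 11 negative, and on the class II side the median over 9 genes was 0.04, with 6 positive and 3 negative. The mean differences were -0.009 and -0.008, so that class I minus class II came to -0.001. On the class II side the 4 chain genes had a mean of -0.170. The 4 loading genes, without Cd74, had a mean of 0.103, and these means nearly cancelled. With only the genes of the molecules themselves class I minus class II was 0.164. As a mean of log2 values centred on each gene's mean over the arrays, the class I side stood at 0.03, 0.04, -0.01 and -0.08 in PDGF-CC arrays 1 to 4 and at 0.03, 0.04 and -0.05 in PBS arrays 1 to 3. The class II side stood at 0.32, -0.02, -0.16 and -0.16 in PDGF-CC and at 0.16, 0.08 and -0.22 in PBS arrays. PDGF-CC array 1 was highest on the class II side and PBS array 3 lowest. The SD of these means within groups was 0.0529 for the class I side, over 19 genes, and 0.217 for the class II side, over 9 genes, and a mean over more genes varies less. Per gene, the median residual SD was 0.119 on the class I side and 0.19 on the class II side, and this contrast was not tested. Spread was uneven within each side: H2-Oa and H2-Eb2, on the class II side, lay at percentiles 16.6 and 19.8 of all tested probe sets, and H2-Q10, on the class I side, at 99.4.

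Among class II chain genes, those of the I-A molecule, H2-Aa and H2-Ab1, and the beta chain gene H2-Eb1 varied most between arrays, in either group. H2-Ab1, the beta chain of I-A, was at log2 values of 9.68, 9.10, 8.70 and 8.65 in PDGF-CC arrays 1 to 4 and at 9.64, 9.52 and 8.48 in PBS arrays 1 to 3. The highest value belonged to a PDGF-CC array and the lowest to a PBS array, and the groups overlapped fully. The difference was -0.19 ± 0.354 (log2, SE, n = 4 and 3), with a 95% interval of -1.02 to 0.65 and a limma adjusted p of 0.901.

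H2-Aa, the alpha chain of I-A, was at 8.25, 7.35, 7.26 and 7.20 in PDGF-CC and at 8.03, 7.81 and 7.55 in PBS arrays. PDGF-CC array 1 was above all PBS arrays and the other PDGF-CC arrays were below all of them. The difference was -0.28 ± 0.268 (log2, SE), with an interval of -0.92 to 0.35 and a limma adjusted p of 0.803. H2-Eb1, whose alpha partner H2-Ea lay below the filter, was at 7.59, 6.79, 6.29 and 6.50 in PDGF-CC and at 7.01, 7.48 and 6.72 in PBS arrays. PDGF-CC array 1 was again highest, PDGF-CC arrays 3 and 4 were below all PBS arrays, and the difference was -0.27 ± 0.328, with an interval of -1.05 to 0.50 (limma adjusted p = 0.838). H2-Eb2, a second E beta chain gene, was close to the filter at 4.41, 4.34, 4.36 and 4.21 in PDGF-CC and at 4.26, 4.32 and 4.21 in PBS arrays.

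The same 3 arrays held the highest values of H2-Aa, H2-Ab1 and H2-Eb1, namely PDGF-CC array 1, PBS array 1 and PBS array 2. Their residual SDs of 0.411, 0.546 and 0.506 lay at percentiles 97.6, 99.1 and 98.8 of all tested probe sets, whose median was 0.128. The mean difference over these 3 genes was -0.249, which became -0.49 on leaving out PDGF-CC array 1 and -0.47 on leaving out PBS array 3, and lay between -0.24 and -0.13 on leaving out any other array. The sample descriptions number the arrays from 1 to 7 over both groups, with PDGF-CC at 1, 2, 5 and 6 and PBS at 3, 4 and 7. Within numbers 1 to 4 the mean difference was -0.12 and within 5 to 7, where PBS had 1 array, it was -0.15. The centred mean of the 3 genes was 0.62, -0.14, 0.34 and 0.38 at numbers 1 to 4. At numbers 5 to 7 it was -0.47, -0.44 and -0.30, below every array of numbers 1 to 4. H2-Ab1 and H2-Eb1 separated in the same way, while H2-Aa overlapped. The spread within groups thus followed the numbering in part, and the cause was not tested.

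**Figure D2:**
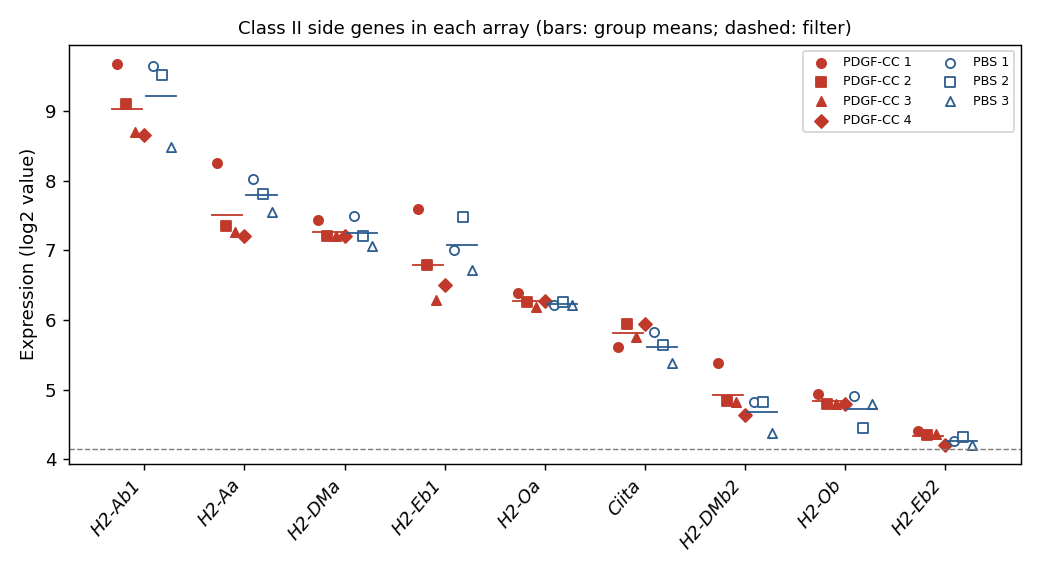
Log2 values of the 9 class II side genes above the filter in each array, with filled marks for PDGF-CC, open marks for PBS, short bars for group means and a dashed line at the filter of 4.145. For H2-Ab1, H2-Aa and H2-Eb1, PDGF-CC array 1 and PBS arrays 1 and 2 hold the highest values.

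Genes of class II loading varied less than H2-Aa, H2-Ab1 and H2-Eb1, though H2-DMb2 lay at percentile 93.6 of all tested probe sets. Cd74, also a gene of class II loading, is not among them. H2-DMa, a subunit of the DM protein that exchanges peptides, was at 7.44, 7.20, 7.20 and 7.20 in PDGF-CC and at 7.49, 7.20 and 7.06 in PBS arrays, a difference of 0.01 ± 0.116. Its highest values were again those of PDGF-CC array 1 and PBS array 1. H2-DMb2, a beta subunit of DM, was at 5.38, 4.83, 4.82 and 4.63 in PDGF-CC and at 4.82, 4.82 and 4.37 in PBS arrays, a difference of 0.25 ± 0.196 (limma adjusted p = 0.782). The groups overlapped, with PDGF-CC array 1 highest and PBS array 3 lowest, and the difference was 0.09 without that PDGF-CC array. H2-Oa, a subunit of DO, which restrains DM, was at 6.39, 6.25, 6.18 and 6.27 in PDGF-CC and at 6.22, 6.25 and 6.22 in PBS arrays. Its partner H2-Ob was at 4.94, 4.79, 4.79 and 4.79 in PDGF-CC and at 4.90, 4.45 and 4.79 in PBS arrays. Neither separated the groups, with differences of 0.04 ± 0.0611 and 0.11 ± 0.110.

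Ciita, the master regulator of class II genes, did not follow the chain genes over the arrays. It was at 5.61, 5.94, 5.75 and 5.94 in PDGF-CC and at 5.83, 5.64 and 5.38 in PBS arrays. PDGF-CC array 1, the highest for the chain genes, had the lowest Ciita value of its group. The difference was 0.19 ± 0.129, with an interval of -0.11 to 0.50 (limma adjusted p = 0.770), and it was 0.08 without PBS array 3, 0.04 within numbers 1 to 4 and 0.47 within 5 to 7.

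Markers of several cell types, only some of which can carry class II, were set beside these values, and their part in the result was not tested. In bulk RNA, fewer cells of a type and less RNA per cell cannot be told apart. Of 8 neutrophil and monocyte markers 7 were above the filter, and Ly6g, which defines neutrophils, was below it at 2.86. The centred mean of these markers ran from -1.34 to 0.69 in PDGF-CC and from -0.72 to 0.85 in PBS arrays. Its highest 3 arrays were those of the class II chains, but Ccr2, Chil3 and Ly6c2 taken singly had another set. The centred mean too was higher at description numbers 1 to 4, from 0.25 to 0.85, than at 5 to 7, from -1.34 to -0.32. All 7 markers had a negative difference, with a median of -0.33. The monocyte receptor gene Ccr2 was at 8.55, 7.76, 7.29 and 6.17 in PDGF-CC and at 8.38, 7.58 and 6.46 in PBS arrays. All 8 markers of border-associated macrophages were above the filter, with a centred mean of -0.11 to 0.14 in PDGF-CC and -0.24 to 0.11 in PBS arrays. Among them Clec12a and F13a1 were highest in the same 3 arrays as the class II chains, and the others were not. Of 7 measured dendritic cell markers all were above the filter, some only just, with Xcr1 at a mean of 4.42 and Itgax at 4.80. The centred mean of the dendritic cell markers ran from -0.12 to 0.06 and from -0.12 to 0.10. It averages 4 positive and 3 negative differences, from -0.38 for Cd209a to 0.45 for Batf3 (limma adjusted p = 0.769 for both). Of 5 measured B cell markers 4 were above the filter, Ms4a1 was below it at 3.93, and the centred mean ran from -0.02 to 0.15 and from -0.18 to -0.03. Of 7 markers of T and NK cells Cd3g, Cd8a and Ncr1 were below the filter, and the centred mean ran from -0.06 to 0.07 and from -0.05 to 0.05. Microglial markers ran from 0.09 to 0.18 in PDGF-CC and from -0.48 to 0.02 in PBS arrays, in 11 genes of 11 measured, and their lowest array, PBS array 2, was among the highest for the class II chains. Of 8 choroid plexus markers 7 had a negative difference, with a median of -0.71 and a centred mean of -0.73 to 0.11 in PDGF-CC and 0.18 to 0.54 in PBS arrays, and all 6 pericyte markers were negative, with a median of -0.15. Over all tested probe sets 48.4% had a positive difference.

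**Figure D3:**
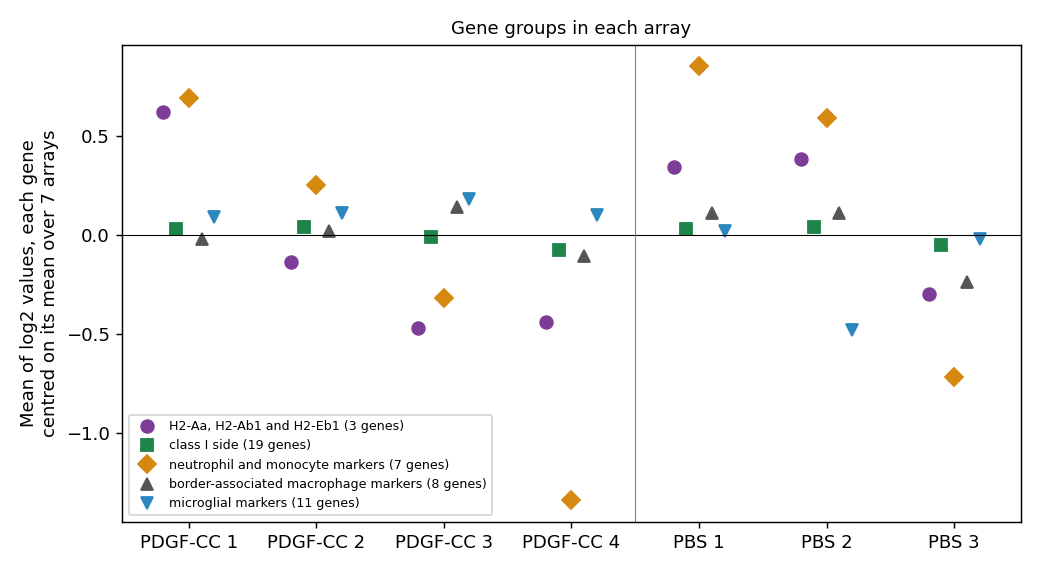
Mean of centred log2 values in each array for the class II chain genes H2-Aa, H2-Ab1 and H2-Eb1, the 19 class I side genes, and markers of neutrophils and monocytes, border-associated macrophages and microglia. The class I side stays between -0.08 and 0.04, while the class II chains run from -0.47 to 0.62.

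B2m was at the top of the measured values, and H2-K1 and H2-K2 of the K region overlapped between the groups. H2-D1 is not among the members, so H2-K1 is the only classical heavy chain gene described here. B2m, the light chain shared by class I molecules, was at 12.98, 12.98, 12.99 and 12.98 in PDGF-CC and at 12.96, 12.98 and 12.98 in PBS arrays. The highest value in the whole table was 12.99, so B2m lay at the top of the measured values, where a further rise may not have been visible. Whether the signal was saturated was not tested. H2-K1, a classical heavy chain, was at 9.37, 9.29, 9.33 and 9.33 in PDGF-CC and at 9.29, 9.11 and 9.59 in PBS arrays. The PDGF-CC values lay inside the PBS range. Its difference was 0.002, with an SE of 0.107 and an interval of -0.25 to 0.25 (limma adjusted p = 0.999), and it was negative without PDGF-CC array 1, PBS array 1 or PBS array 2. H2-K2, of the same region, was at 7.25, 7.66, 6.55 and 7.12 in PDGF-CC and at 6.81, 7.09 and 6.97 in PBS arrays, with the extremes in PDGF-CC arrays 2 and 3. Its difference was 0.19 ± 0.239, and 0.02 without PDGF-CC array 2.

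**Figure D4:**
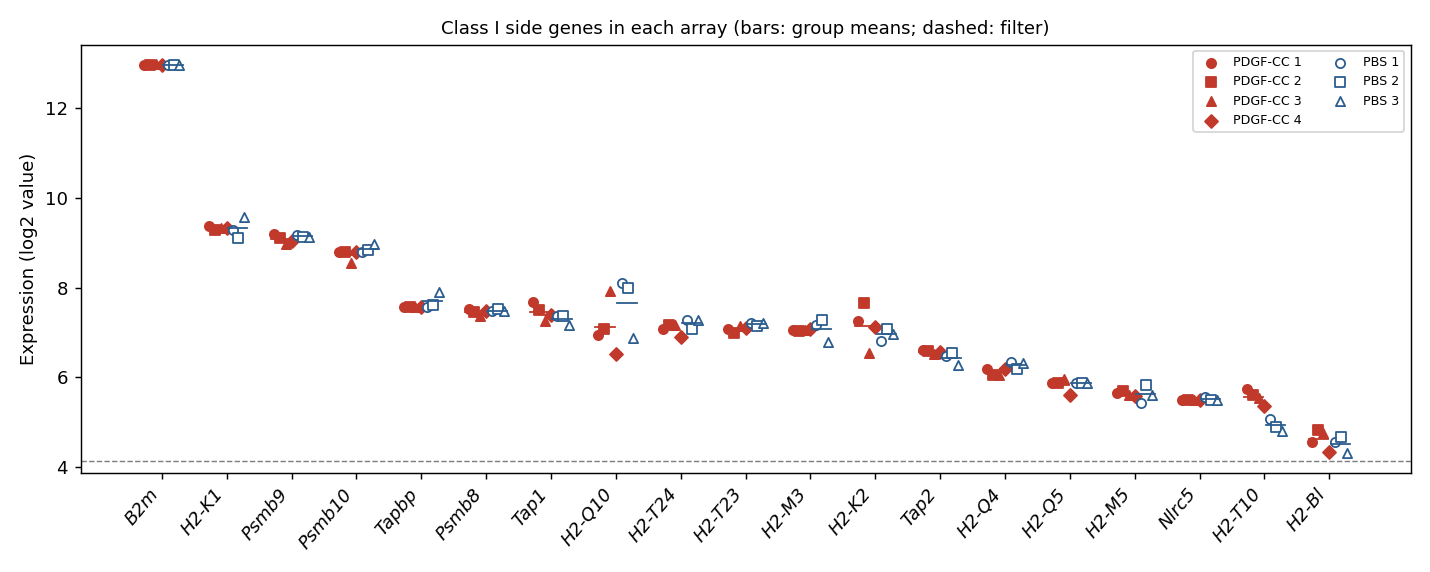
Log2 values of the 19 class I side genes above the filter in each array, marked as for the class II side. The groups lie on each other for most genes, and H2-T10 is the gene with every PDGF-CC array above every PBS array.

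H2-T10 had the largest positive difference of the members. It encodes a class I-like molecule of the T region that binds gamma-delta T cells, and it was at 5.74, 5.61, 5.54 and 5.37 in PDGF-CC and at 5.08, 4.90 and 4.80 in PBS arrays. Every PDGF-CC array was above every PBS array. The difference was 0.63 ± 0.105 (log2, SE), or 1.55-fold, with an interval of 0.39 to 0.88, and it did not pass the threshold (limma unadjusted p = 0.000497, adjusted p = 0.623). It was 0.68 within description numbers 1 to 4 and 0.65 within 5 to 7. T region genes are close copies of each other, so probes may be shared. A probe set annotated to 2 other T region symbols, from which no gene is named, was at 6.53, 7.01, 7.17 and 7.09 in PDGF-CC and at 7.56, 7.06 and 7.44 in PBS arrays, a difference of -0.40 ± 0.183 (limma adjusted p = 0.769). The T region probe sets thus differed in sign.

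H2-T23, which encodes the Qa-1 molecule recognised by NK cell receptors, was at 7.08, 6.98, 7.14 and 7.10 in PDGF-CC and at 7.22, 7.14 and 7.22 in PBS arrays. Every PDGF-CC array was below every PBS array, though PDGF-CC array 3 and PBS array 2 were equal after rounding, and the difference was -0.12 ± 0.0568 (limma adjusted p = 0.769). H2-T24 was at -0.14 ± 0.0896 with overlapping groups. In the Q region, H2-Q4 was at 6.19, 6.05, 6.06 and 6.19 in PDGF-CC and at 6.34, 6.19 and 6.32 in PBS arrays, a difference of -0.16 ± 0.0663 (limma unadjusted p = 0.0449, adjusted p = 0.769). PBS array 2 lay within the PDGF-CC range at the upper end. A second H2-Q4 probe set differed by -0.08 ± 0.0642.

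H2-Q10, known as a secreted class I molecule of the liver, had the largest negative difference and the largest spread of the members. It was at 6.94, 7.08, 7.92 and 6.52 in PDGF-CC and at 8.10, 8.0 and 6.87 in PBS arrays, a difference of -0.54 ± 0.406 with an interval of -1.50 to 0.42 (limma adjusted p = 0.776). Its groups overlapped, and the difference was -0.94 without PBS array 3 and -0.32 without PBS array 1. It was -1.04 within numbers 1 to 4 and 0.35 within 5 to 7. Its second, dimmer probe set differed by 0.01 ± 0.102. Whether the brighter probe set reads H2-Q10 alone was not tested. H2-Q5 likewise had a pair of probe sets of unlike sign, -0.04 ± 0.0871 and 0.40 ± 0.30. H2-M3, which presents formylated peptides, H2-M5 and H2-Bl differed by -0.03, 0.01 and 0.10, all with overlapping groups.

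Genes of peptide supply and loading for class I differed by at most 0.15 in size. Tap1, a subunit of the peptide transporter, was at 7.69, 7.50, 7.26 and 7.39 in PDGF-CC and at 7.37, 7.38 and 7.18 in PBS arrays, a difference of 0.15 ± 0.110. Tap2, the other subunit, was at 6.62, 6.58, 6.53 and 6.56 in PDGF-CC and at 6.47, 6.55 and 6.27 in PBS arrays, a difference of 0.14 ± 0.0752. Both overlapped between the groups, with PBS array 3 lowest (limma adjusted p = 0.773 and 0.769), and Tap1 was at 0.08 without PDGF-CC array 1 and Tap2 at 0.06 without PBS array 3. Psmb9, the immunoproteasome subunit gene that shares the printed promoter stretch with Tap1, was at 9.19, 9.11, 8.98 and 9.04 in PDGF-CC and at 9.18, 9.14 and 9.14 in PBS arrays, a difference of -0.07 ± 0.0618. Psmb9 and Tap1 thus differed in sign, each within the spread of its arrays.

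The other immunoproteasome genes also overlapped between the groups. Psmb8 was at 7.52, 7.46, 7.36 and 7.49 in PDGF-CC and at 7.49, 7.52 and 7.48 in PBS arrays, and Psmb10 at 8.80, 8.80, 8.56 and 8.80 in PDGF-CC and at 8.80, 8.85 and 8.97 in PBS arrays. Their differences were -0.04 ± 0.0550 and -0.13 ± 0.0819. Tapbp, which encodes tapasin, the bridge between class I and TAP, was at 7.58 in each PDGF-CC array and at 7.58, 7.62 and 7.90 in PBS arrays, so that PBS array 3 set most of its difference of -0.12 ± 0.0826, which was -0.02 without that array. The second Tapbp probe set differed by 0.14 ± 0.0966. Nlrc5, the regulator of class I genes, was at 5.49 in all arrays other than PBS array 1, where it was at 5.57. Exactly equal values in 5 or more arrays were found in 3 of 29 members and in 6.03% of all tested probe sets, and the SE of such a gene may be too small.

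**Figure D5:**
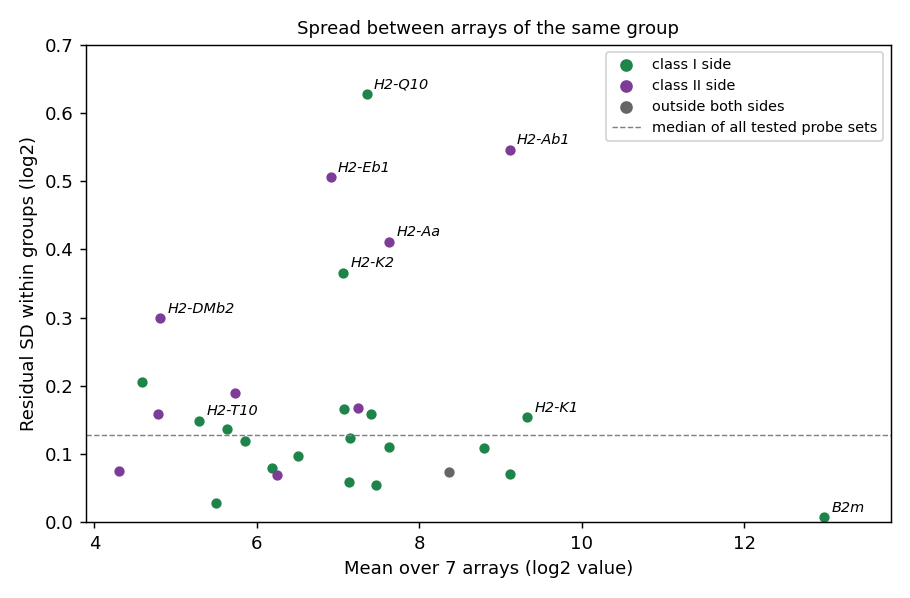
SD between arrays of the same group against the mean log2 value for the 29 members above the filter, with a dashed line at the median of all tested probe sets, 0.128. H2-Q10, H2-Ab1, H2-Eb1 and H2-Aa lie highest, and B2m lies at the right edge with almost no spread.

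Other genes of antigen presentation did not pass the threshold. Of 21 measured genes, among them chaperones of class I, cathepsins and co-stimulators, 15 were positive and 6 negative, with a median of 0.06 and 0 past the adjusted or the unadjusted threshold. Over all tested probe sets 48.4% were positive, and 6.04% had a limma unadjusted p under 0.05. The list was not tested as a set. Those with the smallest p were the lysosomal protease genes Ctsl (0.16 ± 0.0749) and Lgmn (0.27 ± 0.148), and Cd86 (0.17 ± 0.0977), a co-stimulator of T cells. Without PBS array 2, Ctsl was at 0.08 and Lgmn at 0.07, and without PDGF-CC array 2, Cd86 was at 0.11. Constitutive proteasome genes replaced in the immunoproteasome differed by -0.08 ± 0.0651 (Psmb5), -0.10 ± 0.0608 (Psmb6) and -0.02 ± 0.101 (Psmb7). Of 7 class I-like genes above the filter 4 were positive, with a median of 0.02, and Fcgrt, the receptor that recycles IgG, differed by -0.10 ± 0.0823, Procr, the protein C receptor gene, by 0.08 ± 0.0708 and Hfe, a regulator of iron uptake, by -0.11 ± 0.116. Fcgrt was at -0.02 without PBS array 3, and Hfe at -0.02 without PDGF-CC array 1.

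Among 21 interferon signalling and regulator genes above the filter 0 passed the adjusted threshold and 2 had an unadjusted p under 0.05, both higher, against 6.04% of all probe sets. Irf8, a transcription factor of microglia and other myeloid cells, was at 9.27, 9.25, 9.12 and 8.99 in PDGF-CC and at 9.0, 8.03 and 8.04 in PBS arrays. PBS array 1 reached the lowest PDGF-CC array, and the difference was 0.80 ± 0.239 (limma adjusted p = 0.769), 1.13 without PBS array 1. Ifnar2, a subunit of the type I interferon receptor, was at 10.93, 10.84, 10.81 and 10.83 in PDGF-CC and at 10.76, 10.67 and 10.71 in PBS arrays. The groups did not overlap for this 1 gene of the 21, against 4.30% of all probe sets. Its difference was 0.14 ± 0.0526 (limma adjusted p = 0.769). Ifngr2, a subunit of the interferon-gamma receptor, differed by 0.23 ± 0.113, and by 0.09 without PBS array 2. Ifng and Ifnb1 themselves were below the filter, with means of 4.01 and 3.29. Of the 11 microglial markers 10 had a positive difference, with a median of 0.30, and their part in the Irf8 value was not tested. Of 16 interferon-stimulated genes above the filter 14 were negative and 2 positive, with a median of -0.10. Over all tested probe sets 48.4% were positive. A limma unadjusted p under 0.05 was found for 3 of the 16, against 6.04% of all probe sets, all lower and with overlapping groups. They were Ifit2 (-0.24 ± 0.0961), Rsad2 (-0.27 ± 0.107) and Iigp1 (-0.26 ± 0.0967), each with a limma adjusted p of 0.769. The list was not tested as a set. The centred mean of the 16 genes ran from -0.09 to -0.01 in PDGF-CC arrays and stood at -0.01, 0.21 and 0.02 in PBS arrays 1 to 3, so that PBS array 2 alone set the upper end.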

How the data were processed

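RNA from brain vascular fragments was measured on 7 arrays, 4 PDGF-CC and 3 PBS. Total RNA (10 ng, per the labels' protocols) was amplified and labelled. By their range, the values deposited by the authors are log2 levels, similarly but not identically distributed over the arrays. The submitters' processing notes list limma, RMA and Affymetrix Expression Console. The genome build is not given in the sources used here. Normalization between arrays, which RMA includes, can remove a difference in overall RNA level. Arrays carry no read depth, and their number limits the precision.

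Genes were named through the platform annotation. Of 33793 probe sets, 23521 had 1 symbol, 1814 several and 8458 none. Those with a symbol, less the dimmest 30% by mean (17734 left), were fitted by limma 3.58.1 in R 4.3.3, without covariates, 2-sided, with Benjamini-Hochberg adjustment over all of them. The class I side holds heavy chains, B2m, peptide supply and loading and Nlrc5. The class II side holds chains, DM, DO and Ciita. Sides were described without a test.

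Members and lists were chosen with earlier results of these data known. Every member could be named, and values in every array were given for the class II side genes above the filter, B2m, H2-K1, peptide supply and loading, the regulators, and other members with an unadjusted p under 0.05 or a difference of at least 0.4 in size. H2-K2 and H2-T23 were given in full after their values were seen. From each related list the 3 genes with the smallest p were named, and the markers and interferon-stimulated genes named were chosen after their values were seen. Alternatives are described in the closing section.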

Additional observations from a re-analysis of the deposited data

Results flagged for a closer look

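Among the 29 members above the filter, 5 had a PDGF-CC array that stood apart from the other 3, measured as its gap to the nearest array over the range of the group (Dixon's ratio, past its 95% critical value for 4 arrays). The measure was not applied to the 3 PBS arrays. Chance alone gives about 1 in 20 for values that vary freely, but 20% of all tested probe sets passed in these arrays, so 5 of 29 is no more than the background. H2-Aa had a ratio of 0.856, with PDGF-CC array 1 at 8.25 and the next at 7.35. The ratio was 1 for H2-DMa and H2-Ob, also high in PDGF-CC array 1 (7.44 against 7.20 and 4.94 against 4.79), for Psmb10, low in PDGF-CC array 3 (8.56 against 8.80), and for B2m, high in PDGF-CC array 3 by 0.01. In these 4 genes the other 3 arrays held nearly equal values, which makes the ratio reach its limit, and 37.4% of all tested probe sets held exactly equal values in 3 or more of the 7 arrays. H2-Aa, H2-DMa and H2-Ob are all class II side genes and share that array.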

How the results depend on the processing

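Under 16 alternatives, or 15 for genes that a stricter filter drops, no member passed the adjusted threshold by limma, and the lowest adjusted p of a member was 0.248, for H2-T10, whose difference ran from 0.56 to 0.71. Over all tested probe sets the count past the threshold was 3 when the filter was raised to the 50th percentile, with arrays centred on their median or with a trended and robust prior, and 1 with repeated quantile normalization. Leaving out 1 array gave 0 to 1 calls. All of these were lower in PDGF-CC, none was a member, and the cause was not tested. The median of the class II side was -0.231 when only the A and E chains were kept, since 3 of these 4 genes were negative. Class I minus class II ran from -0.065 to 0.095 without single arrays, and over 21 alternatives from -0.065 to 0.164, the last with only the genes of the molecules. Of 29 members 20 kept their sign under all these alternatives and 7 took both signs. The other two had no difference in a setting, at 0.000, Nlrc5 without PBS array 1 and B2m with repeated quantile normalization. H2-DMa was at -0.070 with array weights, -0.056 with description number as a covariate, and from -0.084 to 0.128 without single arrays (-0.053 without PDGF-CC array 1, -0.019 without PBS array 2 and -0.084 without PBS array 3). H2-K1 was at -0.011 with array weights, -0.024 with a block for description numbers 1 to 4 and 5 to 7, and from -0.107 to 0.131 without single arrays (-0.011 without PDGF-CC array 1, -0.019 without PBS array 1, -0.107 without PBS array 2). H2-M3 was at 0.002 with that block and from -0.175 to 0.072 without single arrays (0.024 without PBS array 1). H2-M5 ran from -0.087 (PBS array 1 left out) to 0.119 and stood at -0.007 with PDGF-CC array 2 left out. H2-Q5 was at 0.030 without PDGF-CC array 4, from -0.088. H2-Ab1 ran from -0.553 to 0.027 (without PBS array 1), and H2-Ob from -0.018 (without PBS array 2) to 0.206. Of 12 related genes, Psmb7 was at 0.003 with repeated quantile normalization and from -0.115 to 0.087 (PBS array 3 left out), and Procr ran from -0.002 (PBS array 1 left out) to 0.116. The numbers in the sample titles repeat between groups, and deviations from the group means correlated at 0.16, 0.11 and 0.08 for numbers 1 to 3, so they were not taken as pairs. With them as a replicate block 0 probe sets passed, and H2-Q5 was at 0.030. B2m lay at the top of the measured values, and 14 members below the filter had too little signal for a test.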
